A study of Mus musculus with 2 samples.

Results

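Barcodes in which more than 20% of the unique molecular identifiers (UMIs, each a captured transcript counted once) came from mtDNA-encoded genes made up 14508 of 45432 barcodes with more than 400 UMIs and more than 200 detected genes in 2 mouse retina libraries. They were 10647 of 23176 barcodes in the WT library (45.9%, exact Clopper-Pearson 95% interval 45.3 to 46.6%) and 3861 of 22256 in the ND6 mutant library (17.3%, 16.9 to 17.9%). The study's own quality filter leaves these barcodes out, and the 12529 WT and 18395 mutant barcodes at or below the limit are those it keeps. Barcodes were chosen by their mtDNA share alone, so that share and its difference between the libraries are descriptions of the choice.

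Both libraries were made by 10x Genomics 3′ single-cell RNA-seq from the retina of male C57BL/6J mice aged 7 months, after digestion with trypsin and papain. One came from WT retina and the other from retina of the ND6 mutant, and the number of mice behind each library is not given in the sources used here. The mutant carries mtDNA 13997 G>A (P25L) in *mt-Nd6*, the complex I subunit gene on the light strand. The mutation is homoplasmic throughout the body of the mutant mice, a line derived from female embryonic stem cells. Each mutant litter had a WT father, whereas the WT colony was inbred between siblings. With 1 library per genotype, barcodes are not replicates, no test was made, and the genotype cannot be told apart from the library. All intervals below cover counting error only. The altered codon is shown, because it defines the mutant group, within the reference coding sequence of *mt-Nd6* at chrM:13984-14010 on the minus strand of GRCm38 (mm10), with codon 25 in capitals. The mutant codon is CTT.
mt-Nd6 reference: ttaaagccttcaCCTatttatggaggt

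The share of mtDNA-encoded transcripts is used as a quality measure in single-cell work, because a cell with a torn membrane can lose cytoplasmic mRNA while its mitochondria stay, but cells and cell fragments rich in mitochondria also score high. Most long noncoding RNAs such as *Malat1* are held in the nucleus, whereas mRNAs for ribosomal proteins are abundant in the cytoplasm, so the 2 kinds of RNA describe nuclear and cytoplasmic content separately. Rods are the main cell type of the mouse retina. Retinal ganglion cells (RGCs) send the axons of the optic nerve and are the cells lost in Leber hereditary optic neuropathy (LHON), which mtDNA mutations in complex I genes can cause, and Müller glia span the retina and hold glutamine synthetase.

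The WT library held 77958836 UMIs and the mutant library 80358255, of which 17.4% and 9.66% were mtDNA-encoded. Among barcodes with 10 to 100 UMIs, taken as free RNA outside cells, the share was 18.03% in WT (7324 barcodes) and 8.72% in the mutant (8621 barcodes). Barcodes above the limit were shallow. Their median was 1014 UMIs, 642 nDNA-encoded UMIs and 423 genes in WT, against 1878, 1634 and 900 at or below the limit. The corresponding mutant medians were 791, 519 and 393 above the limit and 1416, 1277 and 768 at or below it. Barcodes above the limit also held more mtDNA-encoded UMIs in absolute number, with medians of 343 against 236 in WT and 257 against 137 in the mutant. Counts of mtDNA-encoded and nDNA-encoded UMIs both enter the share that chose the barcodes, so these differences partly follow from the choice. The median mtDNA share above the limit was 32.4% in WT and 31.6% in the mutant. The minimum number of genes had already removed 4055 WT barcodes, 4045 of them above 20% mtDNA, but only 234 mutant barcodes, 211 of them above 20%. Of the passing barcode sequences 143 occurred in both libraries, 14 of them above the limit in both, 54 in WT only and 16 in the mutant only.

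Content varied gradually with the mtDNA share. Values for genes are given as UMIs per 1000000 nDNA-encoded UMIs (CPM), so that the mtDNA-encoded UMIs themselves do not dilute the other genes. *Malat1* (19:5795690-5802672, minus strand, a long intergenic noncoding RNA in the annotation) went from 41449 CPM in WT barcodes with 0 to 5% mtDNA to 8494 CPM at 20 to 30% and 5537 CPM above 50%. In the mutant library the same bands held 37371, 16354 and 7195 CPM. The 79 ribosomal protein genes together took 5.68% of nDNA-encoded UMIs in the lowest WT band and 22.6% in the highest, and 6.94% and 25.2% in the mutant. *Nefl* (14:68083863-68089095, plus strand), which encodes the neurofilament light chain of axons, went from 40.3 to 1772 CPM in WT and from 47.3 to 4327 CPM in the mutant. *Gnat1* (9:107674474-107679712, minus strand), the rod transducin alpha subunit, followed neither course. It was highest at 20 to 30% in WT (10042 CPM) and at 5 to 10% in the mutant (9391 CPM), and it was lowest above 50%, at 5927 and 3189 CPM.

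**Figure D1:**
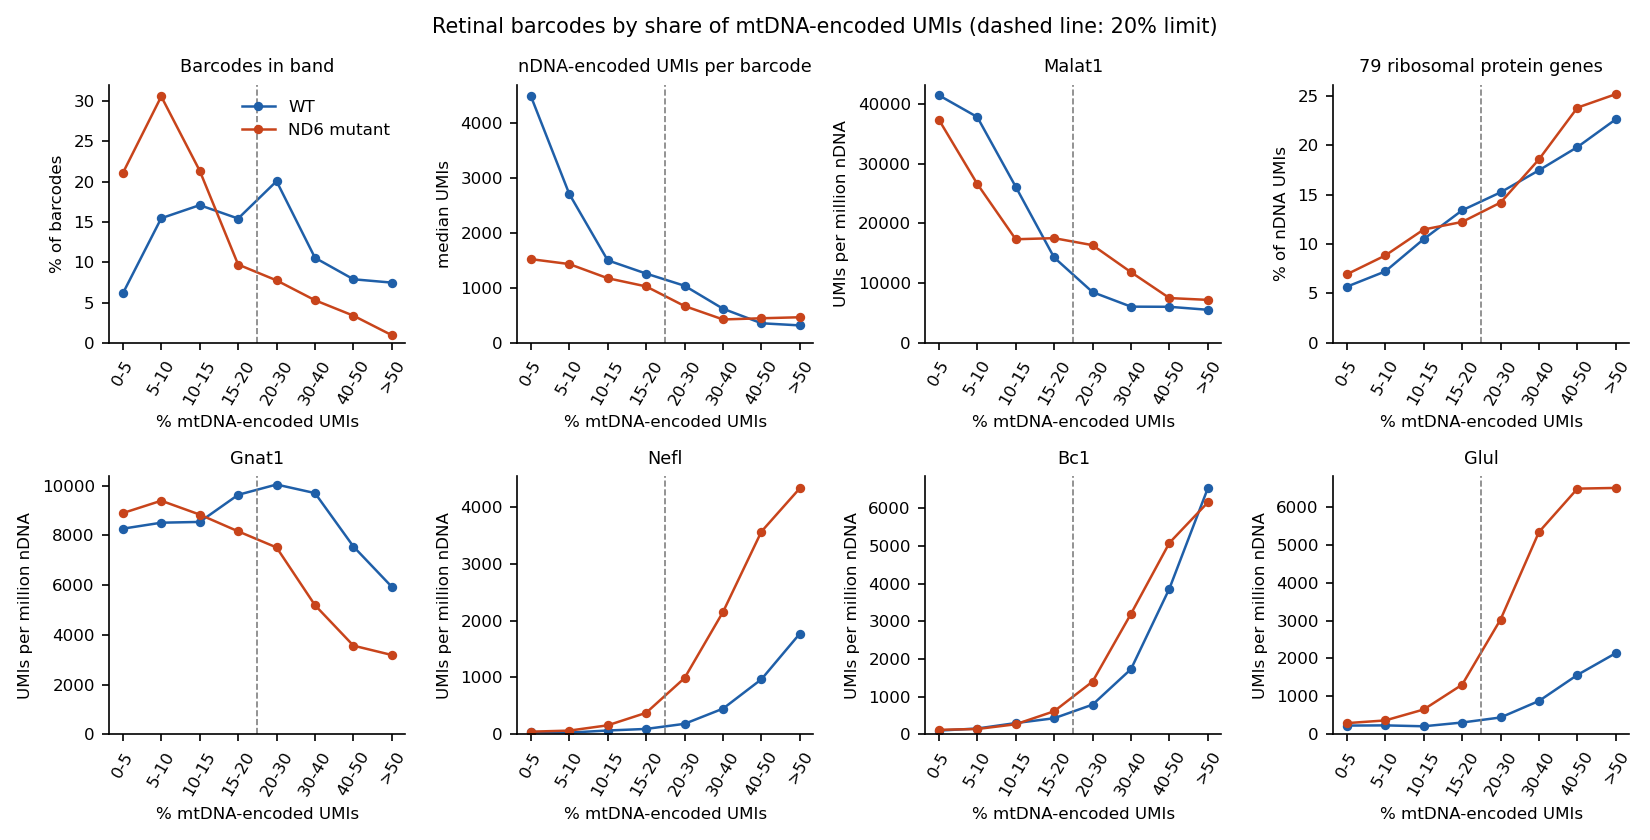
Bands of mtDNA-encoded UMI share (x axis, %) against the share of barcodes in each band, the median nDNA-encoded UMIs per barcode, the levels of single genes in UMIs per 1000000 nDNA-encoded UMIs and the share of nDNA-encoded UMIs from 79 ribosomal protein genes, for the WT (blue) and ND6 mutant (orange) libraries; points are 1 library each and the dashed line marks 20%. *Malat1* declines and ribosomal protein genes climb across the line without a step, while *Nefl*, *Bc1* and *Glul* climb mostly to the right of it.

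Barcodes just above the limit held slightly less *Malat1* than those just below it, and more *Nefl* and *Glul*. WT barcodes at 18 to 20% (1311) and at 20 to 22% (1195) held 10720 and 10191 CPM of *Malat1*, 117 and 154 CPM of *Nefl*, and 293 and 428 CPM of *Glul*. Mutant barcodes at 18 to 20% (684) and at 20 to 22% (460) held 18244 and 17921 CPM of *Malat1*, 454 and 631 CPM of *Nefl*, and 1476 and 1951 CPM of *Glul*. Above the limit, 43.6% of WT and 44.7% of mutant barcodes lay between 20 and 30%, and 16.3% and 5.46% lay above 50%.

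Nuclear RNA was scarcer above the limit when it was measured by its most abundant member. *Malat1* stood at 7506 CPM above the limit and 34289 CPM at or below it in WT, a log2 ratio of -2.19. In the mutant it stood at 13449 and 28966 CPM, a log2 ratio of -1.11. Free RNA held 30544 CPM in WT and 28513 CPM in the mutant, so the barcodes above the limit were below the free RNA in both libraries. The other nuclear RNAs did not follow *Malat1* alike. In WT, *Kcnq1ot1*, an imprinted antisense RNA, was also lower (30.2 against 183 CPM), as was *Neat1*, the scaffold RNA of paraspeckles (3.25 against 12.2 CPM, from 28 UMIs). In the mutant, *Kcnq1ot1* stood at 113 against 227 CPM, but the imprinted neuronal RNA *Meg3* was at 371 against 314 CPM and *Snhg11* at 173 against 139 CPM. Of 11 nuclear RNAs listed, 10 had at least 20 UMIs. Of these, 7 were lower and 2 higher by more than 1.5-fold in WT, where 45.2% of 11750 tested genes were lower and 7.67% higher by that fold. In the mutant 2 were lower and 2 higher, against 26% and 17.5% of 12265 genes. The list's median log2 ratio was -1.42 in WT and 0.24 in the mutant, beside medians of -0.51 and -0.26 over all tested genes. Summed over its members the list was lower in both libraries (0.768% against 3.47% in WT, 1.43% against 2.98% in the mutant), so its median and its sum differ in sign in the mutant, because *Malat1* makes up nearly all of the sum.

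Among cytoplasmic RNAs, those of ribosomal protein genes and most translation factors were enriched per nDNA-encoded UMI. All 79 cytosolic ribosomal protein genes were higher above the limit in both libraries, 79 by more than 1.5-fold in WT and 75 in the mutant. Their summed share was 16.7% against 8.005% in WT and 17.3% against 8.66% in the mutant, and free RNA held 11.5% and 9.67%. *Rps29* (12:69157722-69159186), of the small subunit, gave the most UMIs, at 7110 against 2801 CPM in WT and 6370 against 2457 CPM in the mutant. *Rplp1*, of the ribosomal stalk, had 5684 against 2507 CPM and 5297 against 2647 CPM. Many ribosomal protein genes have processed pseudogenes with near-identical sequence, so single members are less certain than the sum. Of 17 translation factors, 14 were higher in WT and 15 in the mutant (10 and 8 past 1.5-fold, where 7.67% and 17.5% of all tested genes were higher by that fold), and *Eef1a1*, which delivers aminoacyl-tRNA to the ribosome, stood at 2434 against 1522 CPM in WT and 2962 against 1882 CPM in the mutant.

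Because barcodes above the limit were shallower, those at or below it were also weighted so that both sides had the same distribution of nDNA-encoded UMIs per barcode. The weighting used 10057 of 10647 WT and 3744 of 3861 mutant barcodes above the limit, those in ranges of depth that both sides held. The median over all tested genes then moved from -0.51 to -0.05 in WT and from -0.26 to -0.07 in the mutant. After weighting, 11.1% of genes in WT were higher and 9.54% lower by more than 1.5-fold, and 17.2% and 13.2% in the mutant. *Malat1* remained lower, with log2 ratios of -0.89 in WT and -0.61 in the mutant, and *Kcnq1ot1* too (-0.60 and -0.53). The nuclear RNA list did not keep its direction, at a median of 0.15 in WT and -0.17 in the mutant. In WT *Meg3* moved from -1.12 to 0.80 and *Snhg11* from -1.08 to 0.78, and in the mutant from 0.24 to -0.38 and from 0.31 to -0.42. Ribosomal protein genes kept theirs at a smaller size. In WT all 79 were higher but 0 passed 1.5-fold, with a median of 0.24. In the mutant 77 were higher and 41 passed, with a median of 0.59. Of the translation factors 0 in WT and 2 in the mutant then passed, with medians of 0.08 and 0.25.

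Within fixed ranges of depth the picture was alike. Among barcodes with 800 to under 1600 nDNA-encoded UMIs (3620 above and 4887 at or below in WT, 774 and 8204 in the mutant), *Malat1* stood at 4522 against 9674 CPM in WT and 8849 against 14001 CPM in the mutant. Ribosomal protein genes took 16.4% against 14.1% of nDNA-encoded UMIs in WT and 17.9% against 12.4% in the mutant. In each of the 5 depth ranges and in both libraries, *Malat1* was lower and the ribosomal protein and RGC marker shares were higher above the limit. The lowest range, under 400, held 3342 and 145 barcodes in WT and 1319 and 304 in the mutant. Depth is not matched within it, because the UMI minimum keeps barcodes at or below the limit in its upper part. The highest range, from 3200, has no upper bound. When every barcode was thinned to 200 nDNA-encoded UMIs, with 0 barcodes left out, *Malat1* was detected in 49.1% of WT barcodes above the limit and 56.3% at or below it (81.7% and 87.4% unthinned). For the mutant the thinned shares were 75.4% and 68.0% (96.7% and 97.6% unthinned). The thinned shares go against the CPM in the mutant, so no order is read from them. Median genes per thinned barcode were 163 and 164 in WT and 171 and 166 in the mutant.

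**Figure D2:**
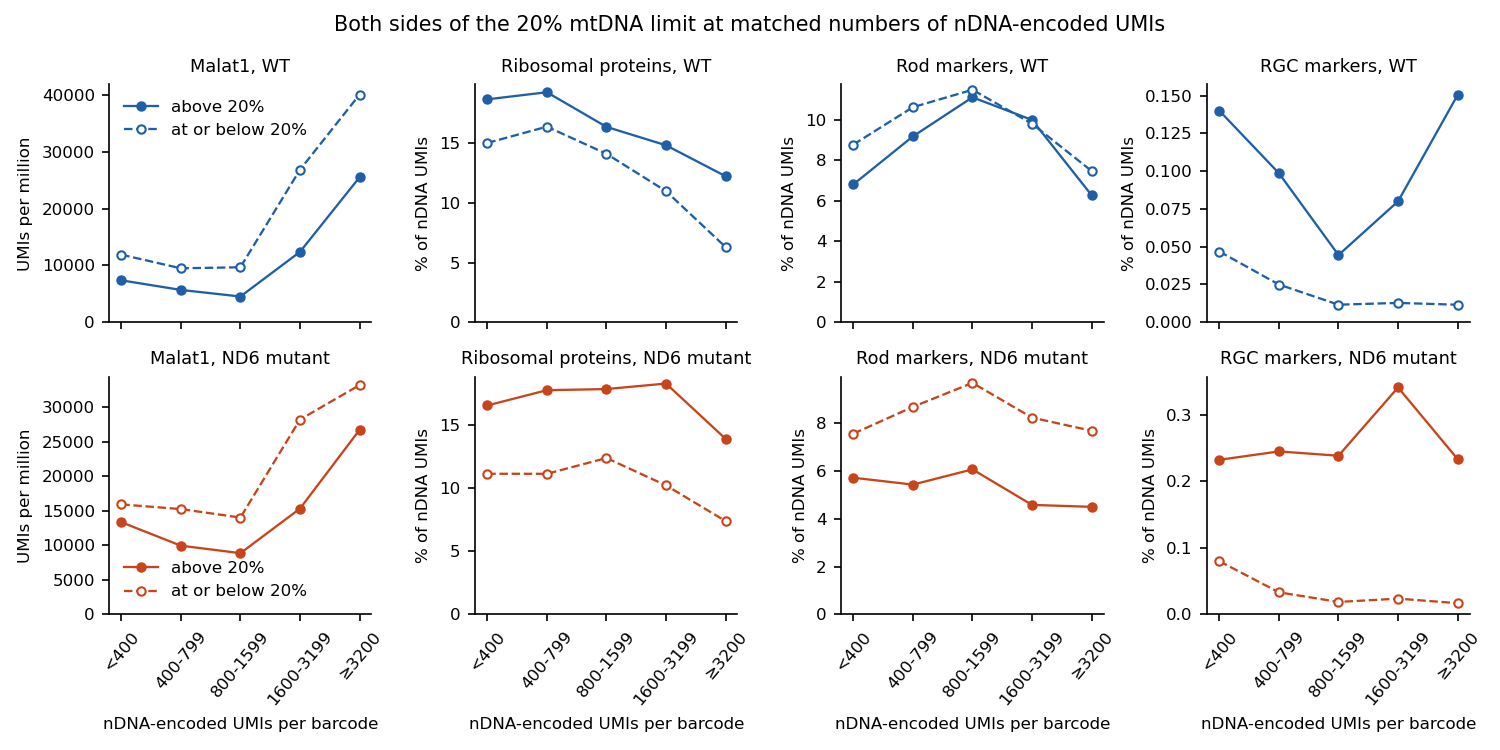
Levels in barcodes above 20% mtDNA (filled points, solid lines) and at or below it (open points, dashed lines) within 5 ranges of nDNA-encoded UMIs per barcode (x axis), for WT (top row) and the ND6 mutant (bottom row); y axes give *Malat1* in UMIs per 1000000 nDNA-encoded UMIs or the share of nDNA-encoded UMIs from each list. In both libraries *Malat1* lies lower and ribosomal protein and RGC marker shares lie higher above the limit in each range, while rod markers lie lower above it in all 5 ranges in the mutant and in 4 of 5 in WT.

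RGC and axonal transcripts had the highest median ratio of the neuronal marker lists over all barcodes before depth weighting. All 12 RGC markers were higher above the limit in both libraries, 10 past 1.5-fold in WT and 12 in the mutant, with median log2 ratios of 2.42 and 3.31. Over all tested genes 7.67% in WT and 17.5% in the mutant were higher by that fold. Together they took 0.0776% of nDNA-encoded UMIs against 0.0119% in WT and 0.262% against 0.0185% in the mutant. Free RNA held 0.0275% and 0.0692%, between the 2 sides in each library. *Nefl* supplied more than any other marker, at 442 against 47.6 CPM in WT (log2 ratio 3.22) and 1827 against 88.0 CPM in the mutant (4.38). *Nefh* (11:4938754-4948064, minus strand), the neurofilament heavy chain, stood at 135 against 24.9 CPM in WT and 242 against 23.7 CPM in the mutant. *Stmn2* (3:8509360-8561606, plus strand), a microtubule regulator of axons, had 39.7 against 3.80 CPM in WT and 99.1 against 6.77 CPM in the mutant. *Gap43* (16:42248442-42340651, minus strand), a protein of growing axons and their endings, had 45.0 against 4.44 CPM and 104 against 6.56 CPM. *Sncg*, the gamma-synuclein gene that labels most RGCs, stood at 53.0 against 8.11 CPM in WT and 116 against 7.52 CPM in the mutant.

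The genes that define RGC identity in the nucleus were higher too, from few UMIs. *Pou4f1*, a transcription factor of RGCs, had 5.45 against 1.04 CPM in WT (47 UMIs above the limit) and 27.1 against 2.82 CPM in the mutant (85 UMIs). *Pou4f2*, which acts in RGC specification, had 1.97 against 0.180 CPM from 17 UMIs in WT and 6.69 against 0.649 CPM from 21 UMIs in the mutant. *Slc17a6*, the vesicular glutamate transporter of RGCs, had 2.90 against 2.02 CPM in WT and 16.6 against 3.69 CPM in the mutant. *Tubb3*, a neuronal tubulin not limited to RGCs, showed among the smallest differences, at 20.7 against 14.2 CPM in WT and 57.7 against 24.1 CPM in the mutant. After depth weighting all 12 markers were past 1.5-fold in both libraries, with medians of 2.13 in WT and 2.74 in the mutant. Over all tested genes 11.1% in WT and 17.2% in the mutant were higher by that fold on the same weighting.

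**Figure D3:**
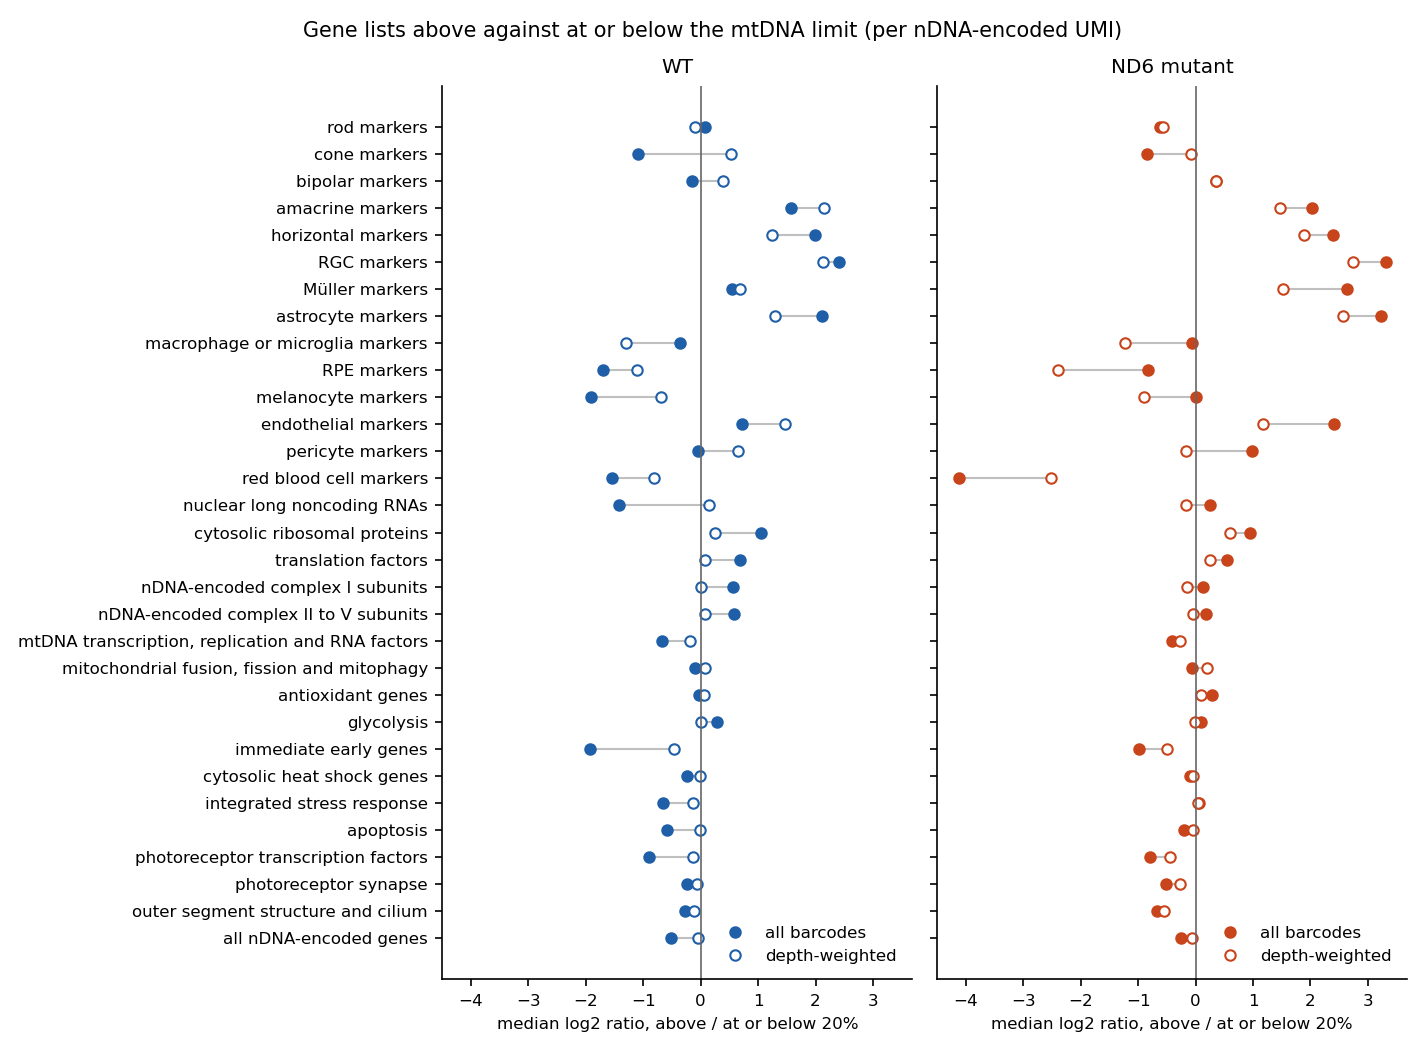
Median log2 ratio of each gene list in barcodes above against at or below 20% mtDNA (x axis, per nDNA-encoded UMI), for WT (left) and the ND6 mutant (right); filled points use all barcodes and open points weight the barcodes at or below the limit to the depth of those above it. RGC, amacrine, horizontal and astrocyte lists lie to the right in both libraries with either weighting, whereas nuclear long noncoding RNAs lie at -1.42 in WT and 0.24 in the mutant and cross 0 in both on weighting.

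Müller glial transcripts were higher chiefly in the mutant library. All 12 Müller markers were higher above the limit by more than 1.5-fold in the mutant (median log2 ratio 2.64), and their summed share was 0.818% against 0.136%. In WT 10 of 12 were higher, 6 past that fold and 1 lower past it, with a median of 0.54 and a share of 0.199% against 0.124%, but at a limit of 10% that median was -0.32. Over all tested genes 17.5% in the mutant and 7.67% in WT were higher by that fold, and 45.2% in WT were lower. *Glul* (1:153899944-153909723, plus strand), which encodes glutamine synthetase, stood at 4288 against 429 CPM in the mutant and 780 against 239 CPM in WT. Free RNA held 1545 and 566 CPM of it. *Rlbp1*, the retinaldehyde-binding protein of the visual cycle, had 1033 against 148 CPM in the mutant and 322 against 161 CPM in WT. *Kcnj10*, the potassium channel of Müller end-feet, had 54.5 against 6.39 CPM in the mutant and 6.61 against 3.20 CPM in WT. *Apoe*, a secreted lipid carrier, had 1296 against 345 CPM in the mutant and 491 against 421 CPM in WT. *Clu*, which encodes the secreted chaperone clusterin, was at 559 against 266 CPM in the mutant but 180 against 279 CPM in WT. With depth weighting 11 of 12 were higher in the mutant (9 past 1.5-fold, median 1.53) and 9 of 12 in WT (6 past it, median 0.69), while *Apoe* in WT and *Clu* in the mutant turned to log2 ratios of -0.44 and -0.24. After that weighting 17.2% of all tested genes in the mutant and 11.1% in WT were higher past 1.5-fold. In WT barcodes under 400 nDNA-encoded UMIs the Müller share was 0.427% above the limit (3342 barcodes) and 0.458% at or below it (145 barcodes).

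Detection in equally thinned barcodes followed the levels for these genes. *Nefl* was detected in 8.98% of WT barcodes above the limit and 1.13% at or below it (17.97% and 9.48% unthinned), and in 24.7% and 2.17% in the mutant (44.2% and 11.8% unthinned). In rod-like barcodes at or below the limit, which should lack it, *Nefl* was detected in 0.684% in WT (median 1811 UMIs) and 1.23% in the mutant (median 1356 UMIs) after thinning. *Glul* was detected in 15.4% and 4.37% of WT barcodes and 44.9% and 8.98% of mutant barcodes after thinning (32.8% and 31.8% in WT and 67.9% and 41.2% in the mutant unthinned), against 3.22% and 5.76% of rod-like barcodes at or below the limit.

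Rod markers took the largest share of the cell type marker lists above the limit, but their level differed between the libraries. The 12 rod markers together took 9.78% of nDNA-encoded UMIs above the limit and 8.29% at or below it in WT, and 5.33% and 8.10% in the mutant. In WT 7 were higher and 5 lower, with 1 past 1.5-fold each way and a median log2 ratio of 0.08. In the mutant 12 of 12 were lower, 7 past that fold, with a median of -0.62. Over all tested genes 45.2% in WT and 26% in the mutant were lower by that fold, and the medians were -0.51 and -0.26. In free RNA the rod markers took 7.30% in WT and 6.96% in the mutant. *Gnat1* was at 9404 against 8558 CPM in WT and 6132 against 9056 CPM in the mutant. *Gngt1*, the transducin gamma subunit, had the largest excess in WT (24280 against 15442 CPM) and was at 7537 against 10792 CPM in the mutant. *Rp1*, a microtubule protein of the outer segment axoneme, was the WT marker lower past 1.5-fold (1623 against 3859 CPM). With depth weighting 12 of 12 were lower in both libraries, by a median of -0.10 in WT (0 past 1.5-fold) and -0.57 in the mutant (5 past it). After that weighting 9.54% of all tested genes in WT and 13.2% in the mutant were lower by that fold.

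Photoreceptor transcription factors and cone markers were mostly lower above the limit. Of 10 photoreceptor transcription factors, 9 were lower in WT (7 past 1.5-fold) and 10 in the mutant (8 past it), where 45.2% and 26% of all tested genes were lower by that fold. With depth weighting 0 and 1 passed it, where 9.54% of all tested genes in WT and 13.2% in the mutant were lower by that fold. *Neurod1*, which maintains photoreceptors, had 739 against 1861 CPM in WT and 584 against 1337 CPM in the mutant, and *Crx*, which drives photoreceptor genes, had 491 against 786 CPM and 500 against 837 CPM. *Nrl*, the rod-specifying factor, was the exception in WT, at 3266 against 2569 CPM, but its log2 ratio of 0.35 turned to -0.056 on depth weighting. The medians of the list moved from -0.90 to -0.13 in WT and from -0.80 to -0.45 in the mutant on the same weighting. Outer segment and cilium genes (15) had medians of -0.27 in WT and -0.67 in the mutant, and photoreceptor synapse genes (16) -0.24 and -0.51, beside -0.51 and -0.26 over all tested genes. Their summed shares were slightly higher above the limit in WT, at 1.96% against 1.84% for the outer segment and cilium and 1.15% against 1.11% for the synapse, and lower in the mutant, at 1.30% against 1.98% and 0.790% against 1.03%. Cone markers were lower, 9 of 10 past 1.5-fold in WT (median -1.08) and 8 of 10 in the mutant (-0.84). *Arr3* (X:100605497-100618493, plus strand), cone arrestin, had 133 against 256 CPM in WT and 180 against 286 CPM in the mutant. That direction was not kept on depth weighting in WT, where all 10 were higher (median 0.52), and shrank to -0.08 in the mutant.

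Amacrine and horizontal cell markers were mostly higher above the limit in both libraries, and bipolar markers in the mutant. Amacrine markers were higher in 8 of 9 cases in WT (7 past 1.5-fold) and 9 of 9 in the mutant (8 past it), with medians of 1.58 and 2.03. *Pax6*, a transcription factor of amacrine cells and RGCs, had 32.3 against 21.1 CPM in WT and 106 against 34.1 CPM in the mutant, and *Gad1*, which makes GABA, had 10.4 against 2.86 CPM and 43.6 against 10.7 CPM. The 5 horizontal cell markers were all higher, with medians of 1.99 and 2.40, and *Calb1*, calbindin, had 14.9 against 2.26 CPM in WT and 24.5 against 4.10 CPM in the mutant. Bipolar markers were split in WT (4 of 12 higher, 3 past 1.5-fold each way) and higher in 11 of 12 cases in the mutant (4 past it). Over all tested genes 7.67% were higher and 45.2% lower by that fold in WT, and 17.5% and 26% in the mutant. *Trpm1*, the ON-bipolar channel, stood at 41.5 against 55.8 CPM in WT and 103 against 74.8 CPM in the mutant. With depth weighting the medians in WT and the mutant were 2.14 and 1.46 for amacrine, 1.24 and 1.89 for horizontal and 0.38 and 0.36 for bipolar markers, so that the WT amacrine median lay beside that of the RGC markers and the WT bipolar median turned.

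Markers of cells other than retinal neurons and Müller glia shared no direction. Retinal pigment epithelium (RPE) markers were lower by more than 1.5-fold in 6 of 7 measured cases in WT and 5 of 7 in the mutant, where 45.2% and 26% of all tested genes were. Their medians moved from -1.70 to -1.11 in WT and from -0.83 to -2.39 in the mutant on depth weighting. *Ttr*, transthyretin, their most abundant member, had 470 against 1817 CPM and 688 against 1360 CPM. Red blood cell markers were lower in 5 of 5 cases in both libraries, and *Hbb-bs*, a beta-globin, had 257 against 747 CPM in WT and 57.0 against 703 CPM in the mutant. On depth weighting their medians moved from -1.54 to -0.81 in WT, with 4 of 5 lower, and from -4.12 to -2.52 in the mutant. Macrophage or microglia markers had medians of -0.36 and -0.05, which moved to -1.29 and -1.24 on depth weighting. Endothelial markers were higher in 4 of 5 measured cases in WT and 3 of 4 in the mutant. Over all tested genes 2780 of 11750 in WT and 4278 of 12265 in the mutant were higher. *Flt1*, a VEGF receptor that is not limited to endothelium, led the markers (14.7 against 8.95 CPM and 101.9 against 14.4 CPM). *Cdh5*, which defines endothelium, was at 0 UMIs above the limit in both libraries. Of 5 astrocyte markers, 2 in WT and 3 in the mutant had at least 20 UMIs. *Gfap*, their defining filament gene, had 11 and 17 UMIs above the limit, and *Pax2* had 0 and 1. *Vtn* alone carried the pericyte list, and the defining channel *Kcnj8* had 1 and 0 UMIs above the limit. Melanocyte markers (4) had medians of -1.92 and 0.01, and of -0.69 and -0.90 on depth weighting.

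For clustering, mtDNA-encoded genes and all gene lists other than the cell type markers, such as nuclear RNAs and ribosomal proteins, were left out. Clustering of all 45432 barcodes gave 17 clusters, of which 10 were named from markers. The share above the limit in each was not set by the mtDNA genes themselves, but clusters follow depth as well as cell type, and with 1 library per genotype a cluster may reflect a library. RGC-like barcodes (cluster 11, led by *Sptbn4*, *Nefh* and *Unc13c*) were almost all above the limit, 114 of 118 in WT (96.6%, 91.5 to 99.1%) and 51 of 54 in the mutant (94.4%, 84.6 to 98.8%). The filter leaves 4 and 3 barcodes of this cluster. The cluster raised 6 RGC markers at least 2-fold and 3 Müller markers besides, and at the coarser resolution of 0.5 no cluster was RGC-like. RGC markers were also raised in unnamed clusters 10 (11 markers, with 9 Müller and 6 amacrine markers) and 13 (10 markers, with 12 Müller and all 9 amacrine markers). These were above the limit in 117 of 177 and 12 of 125 WT barcodes and in 281 of 565 and 19 of 395 mutant barcodes, so cluster 11 does not hold all barcodes with raised RGC markers. Rod-like barcodes were above the limit in 6319 of 16403 cases in WT (38.5%, 37.8 to 39.3%) and 1266 of 14869 in the mutant (8.51%, 8.07 to 8.97%). Cone-like barcodes were above it in 24.3% (200 of 822) and 6.29% (74 of 1176), bipolar-like in 13.8% (37 of 268) and 8.79% (61 of 694), and macrophage or microglia-like in 49.7% (193 of 388) and 20.1% (29 of 144). Unnamed cluster 15 also raised 10 macrophage or microglia markers, with 0 of 49 WT and 0 of 27 mutant barcodes above the limit. These markers took 3.15% and 4.75% of its nDNA-encoded UMIs, against 1.29% and 1.35% in the macrophage or microglia-like cluster 14. Cluster 5, led by *Hbb-bt*, *Hba-a2* and *Hba-a1*, raised 5 red blood cell markers but also 5 rod markers, so it was left unnamed. It was above the limit in 357 of 598 WT barcodes (59.7%) and 92 of 687 mutant barcodes (13.4%). The cone-like class joined a shallow cluster 0, with 64.3% of WT and 21.04% of mutant barcodes above the limit, and a deep cluster 12, with 4.88% and 0.590%.

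**Figure D4:**
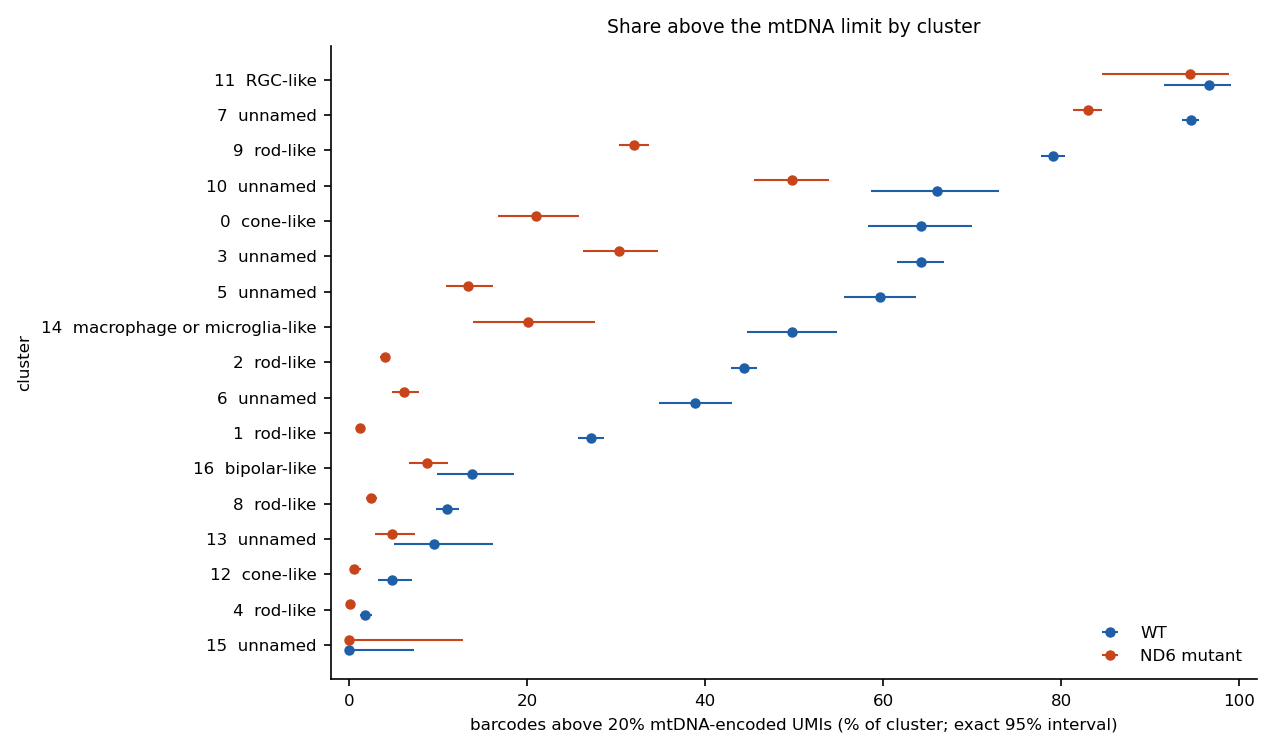
Share of the barcodes of each cluster that lie above 20% mtDNA (x axis, % of cluster, with exact 95% intervals for counting error) in the WT (blue) and ND6 mutant (orange) libraries, for 17 clusters made without mtDNA-encoded genes. The RGC-like cluster 11 and unnamed cluster 7 lie above 80% in both libraries, and rod-like clusters spread from under 2% to 79.1% in WT.

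Above the limit, rod-like barcodes formed 59.4% of the WT and 32.8% of the mutant barcodes, and unnamed clusters 35.5% and 61.6%. Most of the unnamed share was cluster 7, which held 21.2% of the WT and 46.1% of the mutant barcodes above the limit. It was above the limit in 2261 of 2390 WT barcodes (94.6%) and 1781 of 2145 mutant barcodes (83.0%), at a median of 381 and 499 nDNA-encoded UMIs. *Nefl*, *Bc1*, *Fbxo2*, *Crym* and *Fxyd6* led it, and all 12 RGC and all 12 Müller markers were at least 2-fold over the other barcodes, so it was given no cell type name. Rod markers still took 5.30% of its nDNA-encoded UMIs in WT and 3.96% in the mutant. At a finer clustering it divided. The finer cluster that took the largest part of it (50.6% of its WT and 45.5% of its mutant barcodes), led by *Nefl*, *Bc1*, *Camk2n2* and *Nrsn1*, was above the limit in 1185 of 1213 WT and 893 of 979 mutant barcodes. A Müller-like finer cluster, led by *Anxa1*, *Crip2* and *Il33* with all 12 Müller markers raised, was above it in 388 of 438 and 260 of 379, of which 419 and 363 came from cluster 7. That finer cluster held 5664 CPM of *Glul* in WT and 7826 CPM in the mutant, against 2172 and 5520 CPM in the first one, which in turn held 2341 and 3029 CPM of *Nefl* against 492 and 794 CPM. At the other extreme was cluster 15, led by *Il1b*, *Kcnk6* and *Tnf*, with 10 macrophage or microglia markers raised. It had 0 of 49 WT and 0 of 27 mutant barcodes above the limit. The exact interval allows shares of up to 7.25% and 12.8%.

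Rod-like barcodes allow the sides to be compared within 1 named class. Above the limit they came mainly from clusters 9 and 2 in WT (3022 and 1964 of 6319) and cluster 9 in the mutant (969 of 1266), while those at or below it lay mostly in clusters 1, 2, 4 and 8, so the classes differ in make-up. *Malat1* was lower above the limit in WT (6750 against 35914 CPM) and in the mutant (14672 against 28845 CPM). With depth weighting its log2 ratios moved from -2.41 to -0.96 in WT and from -0.98 to -0.24 in the mutant. Ribosomal protein genes were all higher (79 of 79), 79 past 1.5-fold in WT and 0 in the mutant, at 15.8% against 8.55% and 12.2% against 9.54% of nDNA-encoded UMIs. Depth weighting brought their medians from 0.86 to 0.16 in WT and from 0.33 to 0.099 in the mutant. Over all genes tested in rod-like barcodes, 5.31% were higher and 45.6% lower by that fold in WT, and 8.7% and 18% in the mutant. Rod markers had medians of 0.10 in WT and -0.02 in the mutant, but these markers chose the class, so nothing is read from them. Immediate early genes were lower, 13 of 14 past 1.5-fold in WT (median -1.28) and 6 of 14 in the mutant (-0.47), and *Fos* (12:85473890-85477273) stood at 91.5 against 315 CPM and 38.0 against 85.2 CPM. Their medians were -0.44 and -0.29 on depth weighting.

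Transcripts of most other cell types were also more frequent in rod-like barcodes above the limit. Müller markers were higher past 1.5-fold in 12 of 12 cases in both libraries (medians 1.25 and 1.90), and RGC markers in 7 of 9 measured cases in WT and 9 of 11 in the mutant (1.33 and 2.06). Cone markers (1.39 and 1.84), RPE markers (1.56 and 1.65) and macrophage or microglia markers (1.28 and 1.51) moved alike. Red blood cell markers were lower in 3 of 3 measured cases in WT (37 UMIs above the limit) and 3 of 4 in the mutant (7 UMIs). Endothelial markers were higher in 1 of 3 measured cases in WT and 2 of 3 in the mutant. Over all genes tested in rod-like barcodes, 5.31% in WT and 8.7% in the mutant were higher by more than 1.5-fold. Depth weighting brought the Müller medians to 0.36 in WT and 0.62 in the mutant, the RGC medians to 0.34 and 0.62, and the cone medians to 0.42 and -0.07. Free RNA held more Müller transcripts (0.208% and 0.356%) than rod-like barcodes on either side (0.0731% and 0.181% above the limit). The part of free RNA in these values was not tested. Among other genes with at least 500 UMIs per library, *Pcp4*, *Bc1*, *Mt1* and *Basp1* were among the 5 ranked highest over both libraries. *Mt1*, a metallothionein, had 176 against 56.0 CPM in WT and 262 against 68.4 CPM in the mutant. *Gm8251*, *4732440D04Rik*, *Sik2*, *Zscan18* and *Dcp1a* had the lowest. *Sik2*, a salt-inducible kinase, had 14.8 against 82.6 CPM in WT and 13.1 against 50.9 CPM in the mutant, the last from 10 UMIs.

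Across all barcodes, the 10 genes outside the lists that ranked highest over both libraries were *Kif5a*, *Bc1*, *Unc13c*, *Serp2*, *Rph3a*, *Samd14*, *Nrsn1*, *Cplx2*, *Camk2n2* and *Shank1*. *Kif5a* (10:127225696-127263348, minus strand), a kinesin heavy chain of axonal transport, stood at 174 against 14.6 CPM in WT (log2 ratio 3.57, 95% interval 3.45 to 3.70) and 355 against 21.95 CPM in the mutant (4.01, 3.90 to 4.13). *Bc1* (7:144914470-144914637, plus strand), a short noncoding RNA carried into neuronal dendrites, stood at 1737 against 193 CPM in WT and 2628 against 176 CPM in the mutant. *Unc13c*, which primes synaptic vesicles, had 108 against 12.2 CPM and 192 against 23.9 CPM. *Rph3a*, a Rab effector on synaptic vesicles, had 83.9 against 14.8 CPM and 270 against 24.0 CPM, and *Cplx2*, a complexin of vesicle release, had 42.2 against 7.81 CPM and 119 against 14.6 CPM. All 10 stayed higher on depth weighting, with log2 ratios from 1.62 (*Serp2*) to 2.48 (*Kif5a*) in WT and from 2.15 (*Camk2n2*) to 3.33 (*Kif5a*) in the mutant.

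The 10 lowest were *Nfkbiz*, *Gm8251*, *4933408B17Rik*, *Sfxn2*, *Gm26621*, *Zkscan7*, *A430105J06Rik*, *Zfp97*, *Gm13830* and *Adrb1*, which include unannotated transcripts and zinc finger genes. *Nfkbiz*, a nuclear regulator of NF-κB targets, had 4.29 against 24.2 CPM in WT (37 UMIs above the limit) and 2.23 against 10.4 CPM in the mutant (7 UMIs). *Sfxn2*, a mitochondrial sideroflexin, had 11.1 against 53.0 CPM in WT and 9.56 against 31.2 CPM in the mutant. Depth weighting shrank all of these, and for *Adrb1*, the beta-1 adrenoceptor, it turned the WT log2 ratio from -1.71 to 0.73. Immediate early genes, which are induced within minutes of dissociation or stimulation, were lower in 15 of 15 cases in WT (14 past 1.5-fold) and 13 of 15 in the mutant (10 past it), where 45.2% and 26% of all tested genes were lower past that fold. With depth weighting 5 and 6 passed it, where 9.54% of all tested genes in WT and 13.2% in the mutant were lower past that fold. *Fos* had 113 against 430 CPM in WT and 46.8 against 104 CPM in the mutant. Their medians moved from -1.93 to -0.47 in WT and from -0.99 to -0.49 in the mutant on depth weighting.

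Among nuclear genes for the mitochondrion, most respiratory chain subunits were higher per nDNA-encoded UMI above the limit, and most factors of mtDNA expression were lower. Complex I subunits encoded in nDNA were higher in 34 of 36 cases in WT (16 past 1.5-fold, median log2 ratio 0.56) and 25 of 36 in the mutant (3 past it, 0.14), where 7.67% and 17.5% of all tested genes were higher past that fold. *Ndufb8* had 728 against 459 CPM in WT and 600 against 604 CPM in the mutant. Subunits of complexes II to V had medians of 0.59 and 0.18, and *Cox4i1*, of complex IV, had 1708 against 906 CPM and 1795 against 1091 CPM. With depth weighting the complex I medians were 0.01 in WT and -0.15 in the mutant, and those of complexes II to V 0.08 and -0.04. The 23 factors of mtDNA transcription, replication and RNA handling had medians of -0.67 and -0.41, 21 of 23 lower in each library, as were 8970 of 11750 tested genes in WT and 7987 of 12265 in the mutant. On depth weighting those medians were -0.19 and -0.27, with 18 and 17 lower. *Tfam*, which packages mtDNA and starts its transcription, had 20.4 against 26.8 CPM in WT and 21.02 against 23.5 CPM in the mutant. Fusion, fission and mitophagy genes (18) had medians of -0.09 and -0.07, antioxidant genes (15) -0.03 and 0.29, and glycolysis genes (17) 0.28 and 0.09. Apoptosis genes had medians of -0.58 in WT and -0.21 in the mutant, integrated stress response genes -0.66 and 0.06, and cytosolic heat shock genes -0.23 and -0.09, beside medians of -0.51 and -0.26 over all genes. On depth weighting these became -0.010 and -0.041 for apoptosis, -0.13 and 0.046 for the integrated stress response and -0.013 and -0.037 for heat shock genes.

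Among mtDNA-encoded UMIs the 13 genes kept nearly the same proportions on both sides in WT. Of these, *mt-Nd1* (7.11% against 6.63%) and *mt-Nd2* (5.67% against 5.21%) were slightly higher above the limit, and *mt-Nd6* slightly lower (log2 ratio -0.15, from 2091 and 2442 UMIs). In the mutant the differences were larger for most genes, but not for *mt-Atp8*, *mt-Nd3* and *mt-Nd4l*. *mt-Co1*, a catalytic subunit of complex IV, made up 12.3% against 10.1% (log2 ratio 0.29), *mt-Nd1*, of complex I, 8.68% against 7.42% (0.23) and *mt-Nd2* 5.64% against 4.73% (0.25). *mt-Atp6*, of ATP synthase, made up 17.2% against 18.9% (-0.13) and *mt-Co3* 17.1% against 18.9% (-0.15). *mt-Nd6* (chromosome M, 13552 to 14070) had 445 and 1684 UMIs, a log2 ratio of -0.40 (95% interval -0.55 to -0.24).

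Set against WT barcodes above the limit, mutant barcodes above it had lower shares of *mt-Atp8* (log2 ratio -1.26), *mt-Nd4l* (-0.96), *mt-Nd6* (-0.76) and *mt-Nd3* (-0.45) among mtDNA-encoded UMIs, and a higher share of *mt-Nd1* (0.29). At or below the limit these ratios were -1.28, -0.99, -0.52, -0.46 and 0.16, so they were in the same direction on both sides. For 4 genes the direction was not the same. The ratios above the limit and at or below it were 0.21 and -0.13 for *mt-Co1*, -0.095 and 0.012 for *mt-Atp6*, -0.049 and 0.098 for *mt-Co3*, and -0.020 and 0.052 for *mt-Cytb*. *mt-Atp8* overlaps *mt-Atp6*, and *mt-Nd4l* overlaps *mt-Nd4*, so their split between overlapping genes is uncertain.

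The mutant barcodes above the limit held more Müller and inner retinal neuron transcripts, and fewer macrophage or microglia and red blood cell transcripts, than the WT barcodes above it. Of 8491 genes tested between these barcodes, 5496 were higher and 2995 lower in the mutant, with a median log2 ratio of 0.21. By more than 1.5-fold, 28.8% were higher and 6.89% lower. All 12 Müller markers (median 2.11), all 12 RGC markers (1.72), all 9 amacrine markers (1.91) and all 12 bipolar markers (1.40) were higher past that fold. At or below the limit the medians for the same lists were 0.14, 0.85, 1.34 and 0.92. The median over 13061 tested genes was 0.025 there, with 6897 higher and 6164 lower. The Müller value there varied with depth. At 800 to under 1600 nDNA-encoded UMIs the summed share was 0.163% in the mutant and 0.0807% in WT. Only in the range of 3200 and over was it lower in the mutant (0.102% against 0.136%). Macrophage or microglia markers were lower in 7 of 10 cases above the limit (4 past 1.5-fold, median -0.46) and in 10 of 10 at or below it (-1.13). Red blood cell markers were lower past that fold in 4 of 4 measured cases above the limit (median -2.29), and their median at or below it was -0.11. Rod markers were lower in 12 of 12 cases above the limit (6 past 1.5-fold, median -0.55) and near 0 at or below it (-0.02). Ribosomal protein genes had a median of 0.04 above the limit. Nuclear RNAs were higher in 8 of 8 measured cases (median 1.81), *Malat1* among them at 13449 against 7506 CPM. At or below the limit they were higher in 7 of 11 cases (median 0.44), where 6897 of 13061 tested genes were higher. *Malat1* was lower there, at 28966 against 34289 CPM. That direction held only in barcodes with 3200 or more nDNA-encoded UMIs (33163 against 40095 CPM). In each shallower range *Malat1* was higher in the mutant, as at 800 to under 1600 (14001 against 9674 CPM). Cytosolic heat shock genes were lower on both sides (medians -0.79 and -0.94).

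Genes chosen for the same direction in the mutant on both sides of the limit were *Eno1b*, *AC149090.1*, *Fabp4*, *Serpine3* and *Gsg1* (higher) and *Ppp2cb*, *Mbd2*, *1110038B12Rik*, *Ahsa2* and *Gm47101* (lower). *Eno1b*, an enolase gene nearly identical to *Eno1* and so uncertain in its counts, had 187 CPM in the mutant and 55.8 CPM in WT above the limit, and 129 and 38.5 CPM at or below it. *Ppp2cb*, a catalytic subunit of protein phosphatase 2A, had 6.05 and 25.3 CPM above the limit, and 9.12 and 25.5 CPM at or below it. *Mbd2*, which binds methylated DNA, had 38.2 and 90.7 CPM above, and 34.6 and 79.2 CPM at or below. Their size was not always alike on both sides, as for *AC149090.1*, with log2 ratios of 2.75 above the limit and 1.57 at or below it. With 1 library of each genotype these differences have no replicate check.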

How the data were processed

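Reads were aligned and UMIs counted by the authors with Cell Ranger 3.0.2 on mm10, per the submitters' processing notes. The gene annotation release is not given in the sources used here. The deposited files hold raw counts of UMIs for 32285 genes per barcode. Barcodes with more than 400 UMIs and more than 200 genes were kept, and split at 20% of UMIs from the 13 mtDNA-encoded genes. UMIs were summed per library and side and expressed per 1000000 nDNA-encoded UMIs (CPM). Log2 ratios carry conditional exact 95% intervals. No count test was run, since each genotype has 1 library. List members needed 20 UMIs over both sides, and genes of the background 100 UMIs. A gene counted as different past 1.5-fold.

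Barcodes were clustered with scanpy 1.11.5 (Python 3.11.15) on 3000 variable genes, 30 principal components, 20 neighbours and Leiden resolution 1. Left out were 365 genes, those encoded in mtDNA and all members of the 16 gene lists other than the cell type markers. These lists include nuclear RNAs, ribosomal proteins, respiratory chain subunits, immediate early genes, and photoreceptor transcription factor, synapse and outer segment genes. Markers that are also on such a list, as *Nrl* is, were left out too. A cluster was named where at least 3 markers of 1 type were at least 2-fold over the other barcodes, these were at least 2 times as many as for any other type, and its 10 leading genes held more markers of that type than of any other. Rod transcripts occur in every cluster, so rod-like clusters were named by at least 3 rod markers raised 2-fold over the RGC-like, bipolar-like and macrophage or microglia-like clusters, with fewer than 3 markers of any other type raised over the other barcodes. A cluster of another type that also raised at least 3 rod markers over those clusters was left unnamed. These naming rules were settled after the clusters were seen. No doublet caller was run. Genes are named in the text if they are list members or mtDNA-encoded, lead a cluster, or rank among the 10 at either end of the ratio among other genes with 500 or more UMIs in each library and one sign in both (5 at either end in rod-like barcodes and between genotypes). The barcodes, lists and markers were chosen with earlier results of these data known. Positions come from GENCODE M21 (GRCm38). Some genes that the rule names are not reported here. The ratio step was tested on simulated data.

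Alternatives were limits of 10% and 30%, minimums of 1000 UMIs or of over 400 nDNA-encoded UMIs, barcodes weighted equally, all UMIs as the denominator, depth weighting in bins of 0.5 on the log2 scale, other clustering resolutions and removal of shared barcode sequences.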

Additional observations from a re-analysis of the deposited data

Results flagged for a closer look

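The median of the 12 rod markers across the 20% limit had opposite signs in the 2 libraries. In WT 7 markers were higher and 5 lower, with 1 past 1.5-fold each way, whereas in the mutant 12 of 12 were lower. Their median log2 ratio was 0.077 in WT and -0.62 in the mutant, and the difference between the libraries was not tested, since each genotype has 1 library. With both sides at the same depth the WT median was -0.10 and the mutant median -0.57, so the directions were then alike.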

How the results depend on the processing

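No paired analysis was possible because each group has 1 library. Limits are the single library per genotype, the shallow barcodes above the limit (31.5% in WT and 34.3% in the mutant had at most 400 nDNA-encoded UMIs), free RNA and clustering that follows depth. Leaving out shared barcode sequences and weighting depth within rod-like barcodes were chosen after seeing the data. Leaving out the shared sequences moved none of the shares and list medians given next beyond its counting interval.

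The share of barcodes above the limit (45.9% in WT, 17.3% in the mutant) was 78.4% and 48.4% at a limit of 10%, 25.9% and 9.60% at 30%, 33.0% and 9.51% with at least 1000 UMIs, and 37.1% and 12.3% with over 400 nDNA-encoded UMIs. Fewer shallow barcodes enter the last pair by construction. The rod-like share (38.5% and 8.51%) was 76.0% and 44.1%, 17.5% and 3.24%, 27.9% and 2.81%, and 31.9% and 4.92% under the same settings, and 42.2% and 10.5% at resolution 0.5 and 34.3% and 7.16% at resolution 2.

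The ribosomal protein median (1.05 and 0.95) was 1.02 and 0.69 at 10%, 1.11 and 1.22 at 30%, 0.57 and 0.63 with barcodes weighted equally, 0.24 and 0.59 with depth weighting and 0.60 and 0.48 per total UMI. In WT it was 1.02 with at least 1000 UMIs and 1.02 with over 400 nDNA-encoded UMIs. The nuclear RNA median in WT (-1.42) was -0.73 at 10% and -1.87 per total UMI, and turned to 0.15 with depth weighting. In the mutant (0.24) it turned to -0.087 at 10%, -0.10 with at least 1000 UMIs, -0.17 with depth weighting and -0.23 per total UMI. The rod marker median in WT (0.08) was 0.11 at 10%, 0.16 with at least 1000 UMIs and 0.13 with over 400 nDNA-encoded UMIs, and turned to -0.19 at 30%, -0.23 with equal weights, -0.10 with depth weighting and -0.38 per total UMI. In the mutant (-0.62) it was -0.080, -1.23, -0.70, -0.66, -0.57 and -1.09 at 10%, at 30%, with at least 1000 UMIs, with equal weights, with depth weighting and per total UMI.

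Of the single results followed through these settings, the WT Müller list turned at 10% (-0.32) and the WT cone list with depth weighting (0.52). Depth weighting also turned the medians of the bipolar (0.38), pericyte (0.65), antioxidant (0.050) and fusion, fission and mitophagy (0.083) lists in WT, and of the complex I (-0.15), complex II to V (-0.040), pericyte (-0.16), melanocyte (-0.90), glycolysis (-0.015) and fusion, fission and mitophagy (0.19) lists in the mutant. In rod-like barcodes depth weighting turned the nuclear RNA list to 0.19 in WT and -0.13 in the mutant, the WT rod list to -0.0063, WT *Kif5a* to -0.048 and the mutant cone list to -0.071. The causes were not tested. Of the remaining single results and settings, 135 moved beyond their counting interval without a change of sign and 88 did not.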
